A study of Mus musculus with 9 samples.

Results

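The genes described here are Cd8b1, Klrd1, Klrc1 and Gzmm, each read from 1 row of a table of 56923 rows of raw counts. The 4 rows were chosen by the identifier under which they were deposited, and the gene each counted was inferred from the counts, because many nuclear rows of the table lie on other loci than their identifiers name: of 7071 rows that could be placed, 830 lay on their own gene. RNA was sequenced from 9 EL4 tumours, 5 with the genotype label Vec and 4 with the label HVEM-KO. The EL4 line derives from a mouse lymphoma of T cells, and Tnfrsf14 is the gene of HVEM, a cell surface receptor. Nothing used here states the hosts' age, sex or strain, the number of clones behind a genotype, or whether libraries came from separate animals, so p-values reflect only how these libraries vary, which may be technical. By its title the study is about HVEM of the leukaemia and CD8 T cell function, and the comparison made was HVEM-KO against Vec tumours.

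Cytotoxic lymphocytes are CD8 T cells and natural killer (NK) cells that kill other cells by releasing granules. Cd8b1 encodes the CD8 beta chain, part of the co-receptor that binds MHC class I on the target cell. Klrd1 encodes CD94, which pairs with a protein of the NKG2 family. With NKG2A, the product of Klrc1, it forms an inhibitory receptor for Qa-1, and with NKG2C, the product of Klrc2, an activating receptor for the same ligand. Gzmm encodes granzyme M, a serine protease of the granules. In a bulk sample, fewer cells of a type and less RNA per cell cannot be told apart.

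Each row covered only part of its gene, as the map of row positions shows. Cd8b1 (ENSMUSG00000053044) lies on chromosome 6 of GRCm38 from 71322788 to 71337494 on the plus strand. Its row, deposited as ENSMUSG00000108132 (Gm44175), had 4256 bp of exons, of which 127 bp fell on coding exons of Cd8b1, 3996 bp in its introns and 133 bp beyond the gene. Klrd1 (ENSMUSG00000030165) lies on chromosome 6 from 129591782 to 129598775 on the plus strand. Its row carries the identifier of another receptor gene, ENSMUSG00000030149 (Klrk1), and had 597 bp on Klrd1 exons, 288 bp of them coding, 1832 bp in introns and 4754 bp outside. Klrc1 (ENSMUSG00000030167) lies on chromosome 6 from 129666015 to 129678973 on the minus strand. Of the 581 bp of its row, ENSMUSG00000083848 (Gm7309), 578 bp fell on untranslated sequence of the last exon of Klrc1 and 0 bp on coding sequence. Gzmm (ENSMUSG00000054206) lies on chromosome 10 from 79689020 to 79695261 on the plus strand. Its row, ENSMUSG00000006498 (Ptbp1), had 231 bp on Gzmm exons, 151 bp of them coding, 1103 bp in introns and 3406 bp outside. The Cd8b1, Klrd1 and Gzmm rows could thus hold reads from introns or flanking sequence, and the share of such reads was not measured. The Cd8b1 and Klrd1 rows are annotated on the strand opposite to these genes, and whether counting used strand is not stated in the labels.

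**Figure D1:**
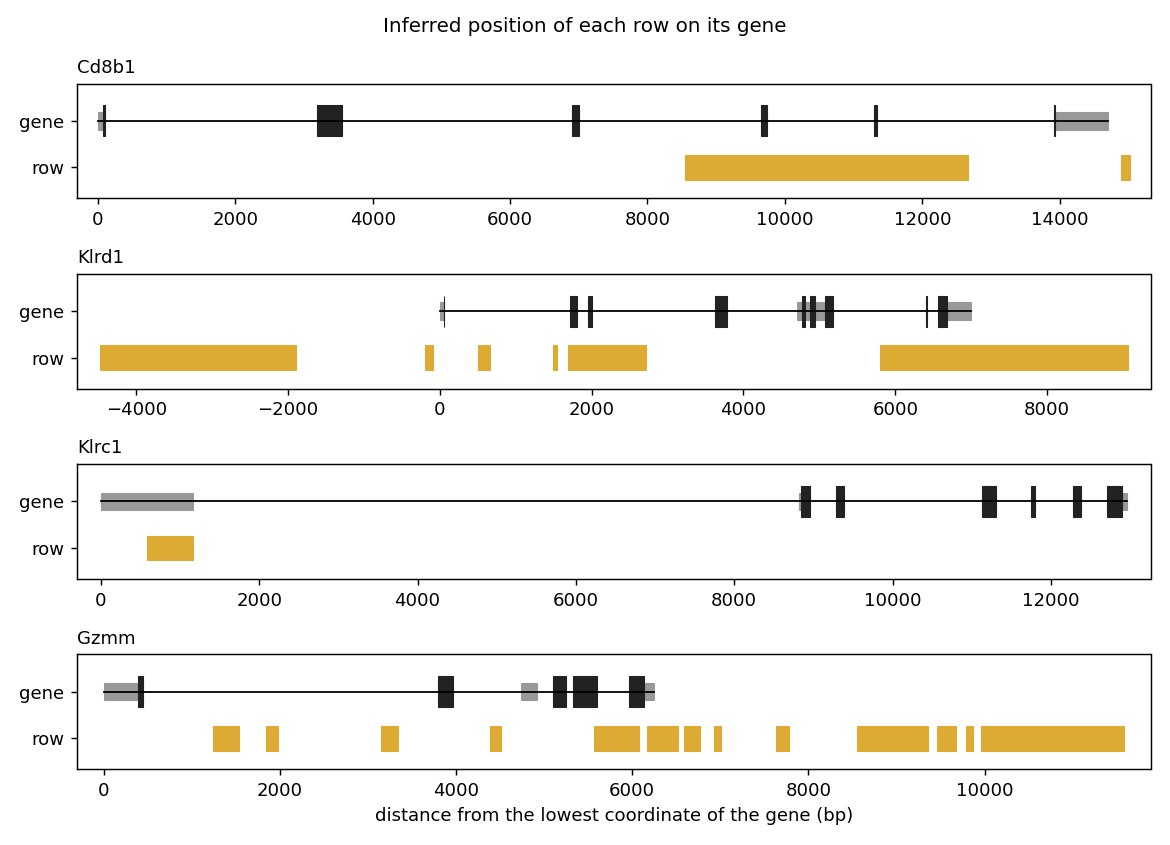
Map of each gene (black line, with coding exons in black and untranslated exon sequence in grey) and of the blocks of its row (yellow), by distance in bp from the gene's lowest coordinate. The Klrc1 row is a single block on untranslated sequence, and the other 3 rows spread over exons, introns and flanking sequence.

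The coding sequences on which the rows lie, by the inferred positions, are shown because the deposited names do not say what was counted. They are only the coding part of what each row covers, and the reads on them were not counted apart. The sequences are the coding parts of GENCODE vM21 exons (GRCm38), 5′ to 3′ on the strand of the gene, with bases covered by the row in capitals. Edges, base counts and exons called whole hold at the fitted displacement, which was refined only to 10 bp, and would move with it. Exon 4 of Cd8b1 (chr6:71332436-71332525) and exon 5 (chr6:71334090-71334126) were covered whole.
Cd8b1 exon 4: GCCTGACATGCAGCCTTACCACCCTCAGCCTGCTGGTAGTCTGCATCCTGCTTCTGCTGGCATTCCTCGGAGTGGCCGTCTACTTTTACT
Cd8b1 exon 5: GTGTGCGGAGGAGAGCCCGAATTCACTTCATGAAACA
Of Klrd1, exons 2 and 3 and the coding end of exon 6 were covered whole. Exon 3 (chr6:129593728-129593790) and the 118 coding bases of exon 6 (whole exon chr6:129598349-129598775) are shown.
Klrd1 exon 3: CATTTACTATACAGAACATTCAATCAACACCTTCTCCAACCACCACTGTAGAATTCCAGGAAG
Klrd1 exon 6: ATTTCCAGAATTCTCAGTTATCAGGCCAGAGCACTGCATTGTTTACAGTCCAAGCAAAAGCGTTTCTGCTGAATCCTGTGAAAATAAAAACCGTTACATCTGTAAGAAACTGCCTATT
Of Gzmm the row covered 36 of 267 coding bases of exon 4, not shown, and 115 of 171 coding bases of exon 5 (chr10:79694987-79695261).
Gzmm exon 5: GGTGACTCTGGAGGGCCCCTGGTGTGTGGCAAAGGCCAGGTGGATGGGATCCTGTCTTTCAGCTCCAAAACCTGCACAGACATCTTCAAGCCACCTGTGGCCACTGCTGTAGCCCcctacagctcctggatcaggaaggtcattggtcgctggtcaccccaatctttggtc

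The covered exon sequences were aligned to all other mouse transcripts with blastn. The Klrc1 stretch aligned to a transcript of Klrc2 over 580 bp at 99.0% identity, so reads of the inhibitory and the activating gene could be confused in this row, and it is called the Klrc1 row only by position. Klrc2 was 1 of 33 genes to which this stretch aligned, and the alignments to the others were 53 bp or shorter. The covered stretches of Cd8b1 and Klrd1 aligned to 0 other genes, and those of Gzmm only to short stretches of other proteases of 37 bp (Klk12) and 34 bp (Prss27).

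Total counts ran from 5532155 to 8205620 per library. On the first dimension of a multidimensional scaling, Vec 1 and Vec 5 stood apart at 1.36 and 1.5, with the other 7 libraries between -1.22 and 0.46, so results are also given without both. Values below are CPM, read counts scaled to a common library size with TMM factors, and they are compared between tumours within a row only. Molecular identifiers are not mentioned in the labels, so floors cover counting error only. No row was placed on Tnfrsf14, so its level could not be used to check the genotypes.

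The row on the CD8 beta chain gene held from 10 to 48 reads per tumour, and its level is not that of the whole gene. The Cd8b1 row was at 2.99, 4.32, 1.69, 4.92 and 1.70 CPM in Vec 1 to 5 and at 5.56, 7.69, 7.86 and 2.97 CPM in HVEM-KO 1 to 4. HVEM-KO 1, 2 and 3 were above every Vec tumour, while HVEM-KO 4 lay within the range of the Vec tumours, so the groups overlapped. The means were 3.13 ± 1.48 CPM (SD, n = 5) and 6.02 ± 2.29 CPM (SD, n = 4). The log2 fold change was 0.95 ± 0.40 (SE), with a 95% interval from 0.07 to 1.82, and the row did not pass (edgeR's quasi-likelihood test, adjusted p = 0.439, with an unadjusted p of 0.0359). Without Vec 1 and Vec 5 it was 0.73.

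The CD94 row had the most reads of the 4 rows, 914 in all, which depends on the sequence each row covers. The Klrd1 row was at 9.48, 17.1, 15.2, 17.0 and 4.43 CPM in Vec 1 to 5 and at 19.8, 18.1, 26.0 and 15.5 CPM in HVEM-KO 1 to 4. Vec 5 and Vec 1 were lowest, HVEM-KO 3 was highest, and Vec 2, 3 and 4 lay close to HVEM-KO 4. The means were 12.6 ± 5.55 CPM (SD, n = 5) and 19.9 ± 4.48 CPM (SD, n = 4), a log2 fold change of 0.65 ± 0.33 (SE) with an interval from -0.08 to 1.38 (edgeR, adjusted p = 0.495). Without Vec 1 and Vec 5 the difference was 0.27.

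The NKG2A row was the shallowest, with 174 reads in all and 2 reads in Vec 5, under the floor of 3 counts. The Klrc1 row was at 2.12, 4.84, 1.30, 2.24 and 0.341 CPM in Vec 1 to 5 and at 4.42, 4.35, 6.39 and 1.65 CPM in HVEM-KO 1 to 4. Vec 2 was above all HVEM-KO tumours but HVEM-KO 3, and HVEM-KO 4 was below Vec 1, so the groups overlapped widely. The log2 fold change was 0.96 ± 0.56 (SE), with an interval from -0.25 to 2.17 (edgeR, adjusted p = 0.526). It was 1.45 without Vec 2 and 0.61 without Vec 1 and Vec 5.

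The granzyme M row was the only 1 of the 4 with a lower mean in HVEM-KO tumours. The Gzmm row was at 5.49, 3.80, 2.60, 3.13 and 7.49 CPM in Vec 1 to 5 and at 3.11, 5.02, 1.31 and 3.47 CPM in HVEM-KO 1 to 4. Vec 5 and Vec 1, the lowest tumours for Klrd1, were the highest for Gzmm, and HVEM-KO 3, the highest for the other 3 rows, was the lowest. The means were 4.50 ± 1.99 CPM (SD, n = 5) and 3.23 ± 1.52 CPM (SD, n = 4), a log2 fold change of -0.48 ± 0.42 (SE) with an interval from -1.39 to 0.44 (edgeR, adjusted p = 0.673). Leaving out Vec 5 or HVEM-KO 3 gave -0.22, and leaving out HVEM-KO 2 gave -0.77. With both Vec 1 and Vec 5 left out the value was 0.02.

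**Figure D2:**
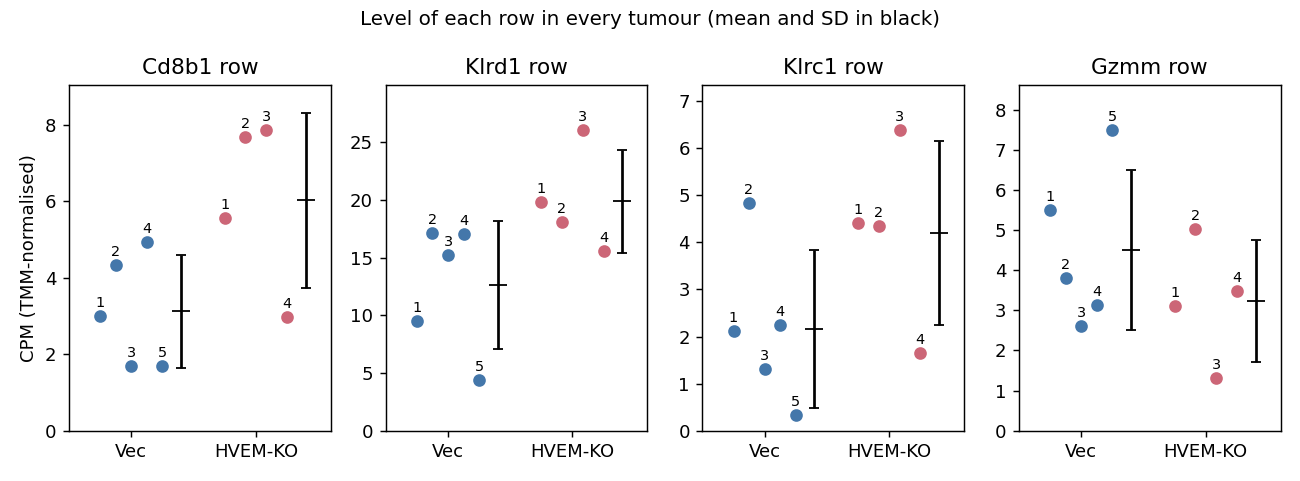
Level of each row in CPM (vertical axis, from 0) in every tumour (points, Vec in blue and HVEM-KO in red, with the replicate number), and the mean and SD of each group (black). Vec 5 is the lowest tumour for Klrd1 and Klrc1 and the highest for Gzmm, and HVEM-KO 3 is the reverse.

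Of the 4 rows, 3 were higher in HVEM-KO tumours and 0 passed over all rows. Among all 11521 tested rows, 52% had a log2 fold change above 0, with a median of 0.01, and 0% passed (edgeR, adjusted p under 0.05), so these counts do not set the 4 rows apart. At an unadjusted p under 0.05 edgeR called 1226 rows, or 10.6%, and 4.99% were called and higher in HVEM-KO tumours. Cd8b1 alone of the 4 was among them. DESeq2 called 81 rows and limma voom called 0, and none of the 4 was among them.

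The coefficient of variation between Vec tumours was 47.3% for Cd8b1, 43.9% for Klrd1, 77.3% for Klrc1 and 44.3% for Gzmm, where Poisson counting at the mean number of reads would give 21.8%, 10.8%, 26.4% and 18.2%. Between HVEM-KO tumours it was 38.0%, 22.6%, 46.3% and 47.2%, where counting would give 16.6%, 9.11%, 19.8% and 22.6%.

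**Figure D3:**
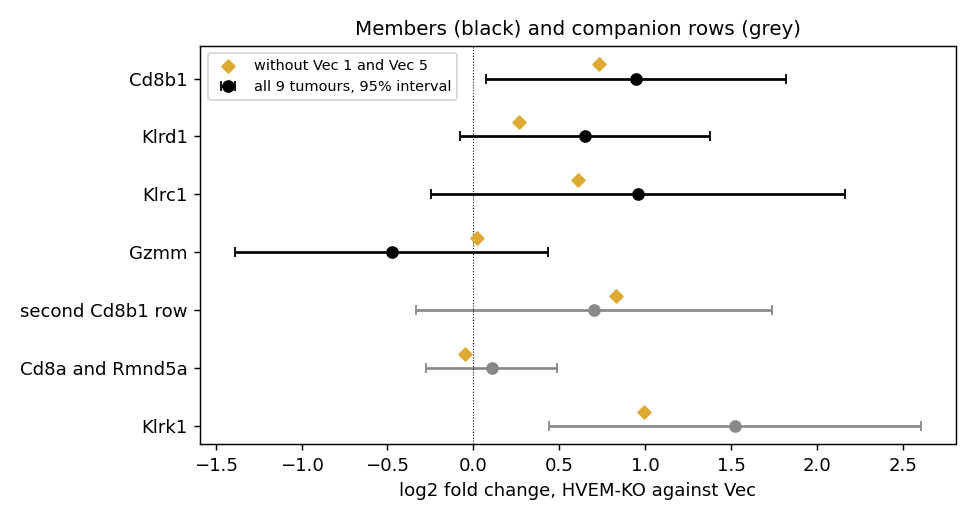
Log2 fold change of HVEM-KO against Vec tumours (horizontal axis) for the 4 rows (black) and for 3 companion rows (grey), with 95% intervals from edgeR, and the value without Vec 1 and Vec 5 (diamonds). The interval crosses 0 for Klrd1, Klrc1 and Gzmm, and each diamond of the 4 rows lies nearer to 0 than its circle. The Klrk1 row (grey) entered the test only through its level in HVEM-KO tumours, so its interval cannot be read as a test.

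Cd8b1, Klrd1 and Klrc1 followed each other over the 9 tumours, and Gzmm did not follow them. All 6 pairs were compared on log2 CPM, with exact two-sided permutation tests adjusted over the 6. The CD94 and NKG2A rows, whose products form 1 receptor, had r = 0.87 (n = 9, exact permutation p = 0.00305, adjusted p = 0.00915) and rho = 0.90 (exact permutation p = 0.00203, adjusted p = 0.00902). Cd8b1 and Klrc1 had r = 0.88 (exact permutation p = 0.00108, adjusted p = 0.00650) and rho = 0.87 (exact permutation p = 0.00451, adjusted p = 0.00902). Cd8b1 and Klrd1 had r = 0.74 (exact permutation p = 0.0127, adjusted p = 0.0191) and rho = 0.88 (exact permutation p = 0.00308, adjusted p = 0.00902).

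Such values were not rare in these libraries. Of all tested rows, 2.73% had a higher r to the Klrd1 row than Klrc1 had, and 1.63% a higher r to the Klrc1 row than Klrd1 had. For Cd8b1 and Klrc1 the shares were 1.41% and 1.06%, and for Cd8b1 and Klrd1 they were 8.94% and 10.3%.

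With each tumour set against the mean of its own group, r was 0.81 for Klrd1 and Klrc1 (exact permutation within groups, adjusted p = 0.0313) and 0.84 for Cd8b1 and Klrc1 (adjusted p = 0.0219, exact permutation). It was 0.60 for Cd8b1 and Klrd1 (exact permutation, adjusted p = 0.170). Without the 2 tumours farthest from the median of the first row of the pair, r was 0.80 for Cd8b1 and Klrd1, 0.81 for Cd8b1 and Klrc1 (both without Vec 3 and Vec 5) and 0.81 for Klrd1 and Klrc1 (without Vec 1 and Vec 5). The call for Cd8b1 and Klrc1 was then lost (exact permutation, adjusted p = 0.0786). The calls that rested on 1 tumour were those of Klrd1 and Klrc1, with r = 0.66 without Vec 5 (exact permutation, adjusted p = 0.113), and of Cd8b1 and Klrd1, with r = 0.66 without Vec 5 (adjusted p = 0.113, exact permutation) and 0.67 without HVEM-KO 3 (adjusted p = 0.0890, exact permutation).

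Gzmm ran against Klrd1, with r = -0.81 (exact permutation p = 0.0114, adjusted p = 0.0191), but by rank rho was -0.60 (exact permutation p = 0.0968, adjusted p = 0.145). Of all tested rows 99.3% had a higher r to the Gzmm row and 96.2% a higher r to the Klrd1 row. Within groups r was -0.78 (exact permutation, adjusted p = 0.0219). It was -0.67 without Vec 1 and Vec 5, the 2 tumours farthest from the median of Klrd1 (exact permutation, adjusted p = 0.200), -0.74 without Vec 5 (exact permutation, adjusted p = 0.113) and -0.79 without Vec 1 (exact permutation, adjusted p = 0.0532). The call was thus lost without Vec 1, without Vec 5 and without both, with r from -0.79 to -0.67. Gzmm and Klrc1 had r = -0.58 and rho = -0.42, and Gzmm and Cd8b1 r = -0.44 and rho = -0.30, and neither passed (exact permutation, adjusted p = 0.123, 0.323, 0.246 and 0.437 in this order). Without the 2 tumours farthest from the median of the first row, r was 0.34 for Klrc1 and Gzmm (without Vec 5 and HVEM-KO 3) and -0.49 for Cd8b1 and Gzmm (without Vec 3 and Vec 5). Without Vec 1 and Vec 5 these values were -0.19 and -0.07, and r of Cd8b1 and Gzmm was -0.15 without HVEM-KO 3.

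**Figure D4:**
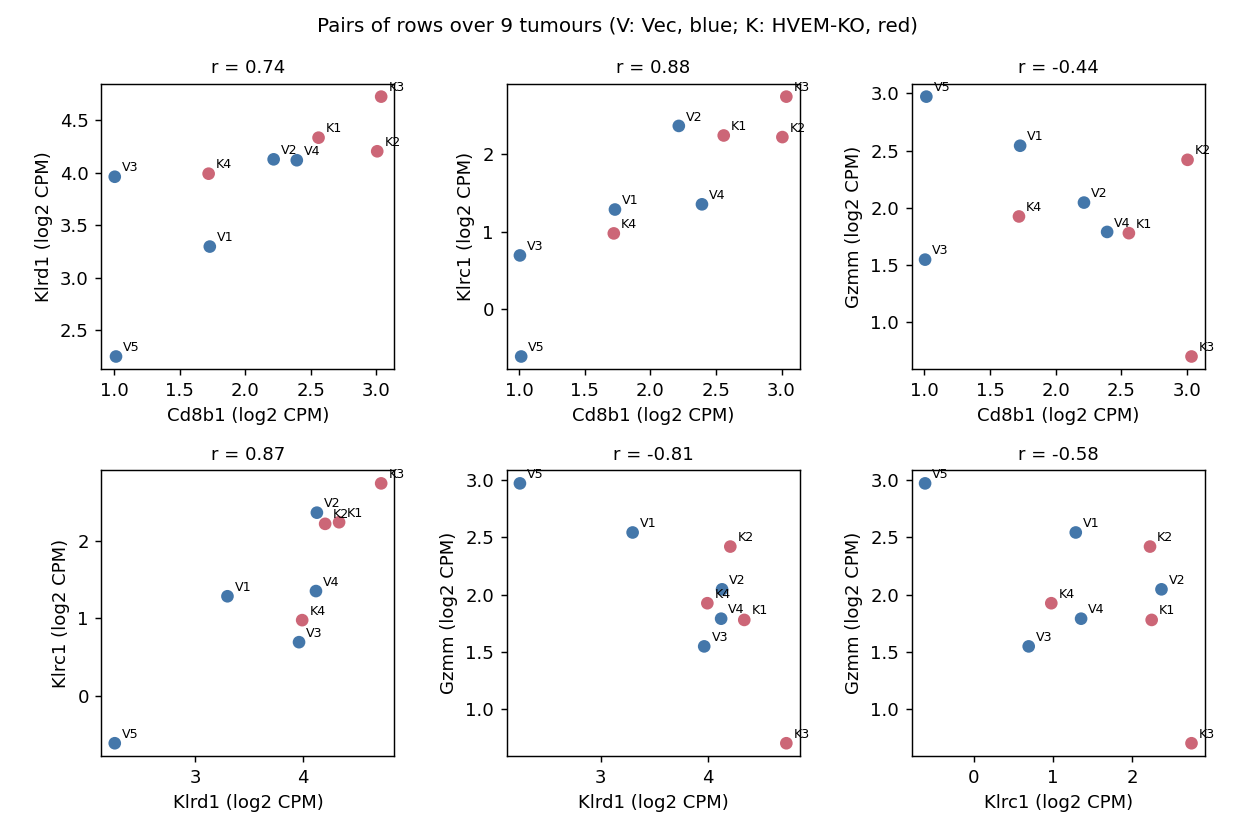
Each of the 6 pairs of rows, in log2 CPM on both axes, with 1 point per tumour (V1 to V5 for Vec in blue, K1 to K4 for HVEM-KO in red) and Pearson's r. The 3 pairs without Gzmm run upward, with r from 0.74 to 0.88, and the 3 pairs with Gzmm run downward, with Vec 5 and HVEM-KO 3 at the ends.

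Whether the fold changes of the rows differed from each other was tested on the log2 difference between 2 rows in the same tumour, over the 126 ways to choose 4 of 9 tumours. The difference of Cd8b1 from Gzmm was 1.38 higher in HVEM-KO than in Vec tumours (exact permutation p = 0.0873, adjusted over 6 pairs 0.460), and all 4 HVEM-KO tumours lay above the median of the Vec tumours. For Klrc1 and Gzmm it was 1.51 higher and for Klrd1 and Gzmm 1.24 higher (exact permutation, adjusted p = 0.460 for both). Among Cd8b1, Klrd1 and Klrc1 the differences were 0.15, -0.12 and -0.27 (exact permutation, adjusted p = 0.770, 0.770 and 0.738). No pair of rows was therefore shown to change differently.

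Other rows on the same genes and on their neighbours gave a second reading. A second row on Cd8b1, deposited as Gm44111, covered 38 bp of Cd8b1 exons, too little for the placement rule, and held 152 reads. Vec tumours averaged 2.08 ± 0.816 CPM (SD, n = 5) there and HVEM-KO tumours 3.39 ± 2.02 CPM (SD, n = 4), for a log2 fold change of 0.70 ± 0.48 (SE; edgeR, adjusted p = 0.576), and 0.34 without HVEM-KO 2. Over the 9 tumours its r was 0.82 with the first Cd8b1 row. The row nearest to Cd8a, the gene of the CD8 alpha chain, lay with 59.5% of its overlap with exons of coding genes on Cd8a and the rest on other genes. It was at 48.9 ± 10.5 CPM (SD, n = 5) and 52.8 ± 4.19 CPM (SD, n = 4), a log2 fold change of 0.11 ± 0.18 (SE; edgeR, adjusted p = 0.836), and -0.05 without Vec 1 and Vec 5. This row mixes genes and does not measure Cd8a.

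Klrk1, which encodes the activating receptor NKG2D of NK cells and CD8 T cells, lies between Klrd1 and Klrc1. The row on it, deposited as Klrc3, covered 101 bp of Klrk1 exons and held 115 reads. Where its other bases fell is not given here. It was at 0.249, 1.90, 1.43, 1.49 and 0.511 CPM in Vec 1 to 5 and at 4.09, 2.01, 3.93 and 2.81 CPM in HVEM-KO 1 to 4. The groups did not overlap, as for 2.93% of tested rows in either direction, though HVEM-KO 2 and Vec 2 lay close, and Vec 1 and Vec 5 had 2 and 3 reads. The means were 1.12 ± 0.702 CPM (SD, n = 5) and 3.21 ± 0.983 CPM (SD, n = 4). The row entered the test only through its level in HVEM-KO tumours, so no test of it is given. Its r was 0.82 with Klrd1, 0.64 with Klrc1, 0.61 with Cd8b1 and -0.72 with Gzmm over the 9 tumours. A row on Klrc3, deposited as Klrc1, held 36 reads, with 0 in Vec 2 and Vec 5, and was not tested.

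Other cytotoxic genes were reached only in part. Of 18 effector genes listed, 3 had a placed row, Gzmm, Ctsw and Lamp1, with 1 higher, 2 lower and 0 past the test (edgeR). Ctsw, a cathepsin of NK and CD8 T cells, was at 4.04 ± 1.63 CPM (SD, n = 5) and 9.37 ± 3.55 CPM (SD, n = 4), a log2 fold change of 1.21 ± 0.35 (SE; edgeR, adjusted p = 0.353), which passed without a low-count filter (adjusted p = 0.0349). Lamp1, a lysosomal membrane protein of most cells, was at 1197 ± 255 and 1194 ± 210 CPM. Of 12 CD8 T cell genes, 2 had a placed row, Cd8b1 (described above) and Cd3e. Both were higher, as were 52% of all tested rows, and neither passed the test. Cd3e, a chain of the T cell receptor complex, was at 2.94 ± 1.00 and 3.84 ± 0.986 CPM. It is also on the T lineage list below, which holds genes of the lineage from which EL4 derives. Of 20 NK receptor genes, 4 had a placed row and 3 were tested, Klrd1, Klrc1 and Klrk1. Klrd1 and Klrc1 are the rows already described, and Klrk1 entered the test only through its level in HVEM-KO tumours. The direction of this list therefore adds no separate support. No row was placed on the NK cell markers Ncr1, Klrb1c, Klre1, Tyrobp or Fcer1g, so the label of cytotoxic lymphocytes could not be checked by them.

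The levels of Cd8b1, Klrd1 and Klrc1 moved with markers of other cells that are not part of the tumour line. Levels of 6 marker lists, as summed CPM of placed rows, and total counts were set against each of the 4 rows, 28 relations in all, added after the data were seen. For the macrophage list 3 of 10 genes were placed (Csf1r, Mertk and Cd163, none at 0), with sums from 27.6 to 80.7 CPM in Vec and from 51.9 to 135 CPM in HVEM-KO tumours. Most of the sum came from Csf1r, at 47.4 CPM over Vec and 83.7 CPM over HVEM-KO tumours. Mertk was at 3.06 and 4.83 CPM and Cd163 at 2.38 and 4.03 CPM, so the list mainly reads 1 row. Vec 5 and Vec 1 had the lowest sums and HVEM-KO 3 the highest. Klrd1 had r = 0.89 with this list (n = 9, exact permutation p = 4.96e-05, adjusted p = 0.00139) and rho = 0.95 (exact permutation, adjusted p = 0.00988), and r = 0.87 without Vec 1 and Vec 5, the 2 tumours farthest from the median of the list. Cd8b1 had r = 0.88 (exact permutation p = 0.00267, adjusted p = 0.00830) and rho = 0.87 (exact permutation, adjusted p = 0.0180), and Klrc1 r = 0.87 (exact permutation p = 0.00182, adjusted p = 0.00636) and rho = 0.90 (exact permutation, adjusted p = 0.0142). Without the same 2 tumours r was 0.91 and 0.90. Gzmm had r = -0.69 (exact permutation p = 0.0368, adjusted p = 0.0644) and rho = -0.48 (exact permutation, adjusted p = 0.271), and r = -0.31 without both.

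The dendritic cell, neutrophil and fibroblast lists gave like values for the 3 rows. With the dendritic cell list, of which Itgax alone of 5 genes was placed (from 10.9 to 32.5 CPM over Vec and from 24.6 to 54.7 CPM over HVEM-KO tumours), r was 0.92 for Cd8b1, 0.86 for Klrd1 and 0.88 for Klrc1. With the neutrophil list, of which Csf3r alone of 5 was placed (13.1 to 57.7 and 41.8 to 73.4 CPM), r was 0.87, 0.85 and 0.88. With the fibroblast list, of which 9 of 12 were placed (3060 to 10862 and 3759 to 15291 CPM), r was 0.86, 0.72 and 0.82. These 9 values had adjusted p from 0.00336 to 0.0180 (exact permutation), with rho from 0.78 to 0.93 (exact permutation, adjusted p from 0.0105 to 0.0344). Without the 2 tumours farthest from the median of the list, r ran from 0.60 for Klrd1 and the fibroblast list to 0.92 for Klrd1 and Itgax. Of the endothelial list 3 of 6 genes were placed. Pecam1 averaged 125 CPM over Vec and 164 CPM over HVEM-KO tumours, Vwf 11.1 and 20.8 CPM, and Emcn held 2 reads in all. The list thus mainly reads the Pecam1 row. With this list r was 0.93 for Klrd1 (exact permutation, adjusted p = 0.00488) and 0.81 for Klrc1 (adjusted p = 0.0151, exact permutation). It was 0.68 for Cd8b1, which did not pass (exact permutation, adjusted p = 0.0677). Without Vec 1 and Vec 5 these values were 0.54, 0.79 and 0.59. The B cell list, of which Ms4a1 and Pax5 of 5 genes were placed, was not among the 28 relations. Its sums ran from 7.73 to 18.0 CPM over Vec and from 7.54 to 18.3 CPM over HVEM-KO tumours, and HVEM-KO 3, the highest tumour for the 3 rows, was the lowest. Nearly all of each sum was Pax5, at 12.4 CPM over Vec and 11.7 CPM over HVEM-KO tumours. Ms4a1, with 20 reads in all, was at 0.238 and 0.493 CPM, so the sums read Pax5 and not a cell type. For Gzmm no relation with these 6 lists passed (exact permutation, adjusted p from 0.0644 to 0.168). The share of all tested rows with such values to these lists was not measured. The part of these cells in the relation among the 4 rows was not tested.

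The T lineage list behaved otherwise. It holds genes of the lineage from which EL4 derives, and 6 of its 12 genes were placed (among them Cd3e, Cd5, Thy1, Zap70 and Lat, none at 0), with sums from 2551 to 5161 CPM in Vec and from 2165 to 3353 CPM in HVEM-KO tumours. Klrd1 had r = -0.78 with it (exact permutation p = 0.0169, adjusted p = 0.0316), rho = -0.60 (exact permutation, adjusted p = 0.159) and r = -0.40 without Vec 5 and HVEM-KO 1, the 2 tumours farthest from its median, so the relation rested on those tumours. Gzmm had r = 0.59 and rho = 0.63, and r = 0.34 without the same tumours (exact permutation, adjusted p = 0.132 for r and 0.133 for rho). With total counts, r ran from -0.45 for Cd8b1 to 0.08 for Gzmm (exact permutation, adjusted p = 0.259 and 0.842).

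**Figure D5:**
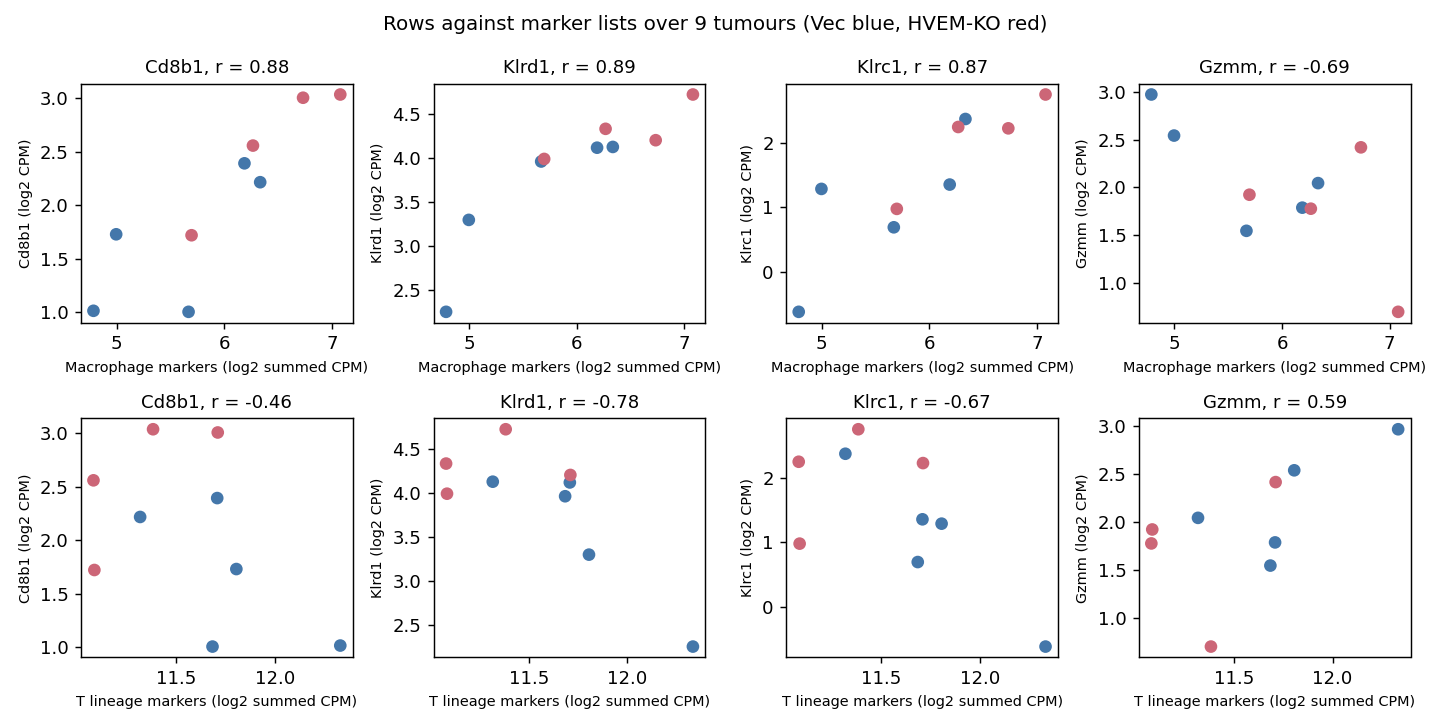
Level of each row (vertical axis, log2 CPM) against the summed CPM of the macrophage list (top) and of the T lineage list (bottom), both on a log2 scale, with 1 point per tumour (Vec in blue, HVEM-KO in red) and Pearson's r. The first 3 rows run upward with the macrophage list, with r from 0.87 to 0.89, and Gzmm runs downward at -0.69.

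The rows most like each gene were taken from 4300 rows placed on 1 named gene whose mean log2 CPM was 1 or more, by Pearson's r of log2 CPM over the 9 tumours, as a description. For Cd8b1 they included Gjc1, a gap junction gene (r = 0.96), and Nfam1, an ITAM-bearing receptor gene (0.96). For Klrd1 they were Cp, which encodes ceruloplasmin (0.99), Xdh, a xanthine dehydrogenase (0.98), and Oas2, an interferon-induced antiviral gene (0.98). For Klrc1 they were Cyp4f18 (0.96), Osr2 (0.95) and the metal transporter Slc39a14 (0.95). For Gzmm they were Hinfp (0.96), Helz (0.91) and Nmrk2 (0.89). No gene was among the nearest 3 of more than 1 of the 4 rows. Without Vec 1 and Vec 5 the values of the genes named here ran from 0.81 for Nmrk2 to 0.98 for Gjc1.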

How the data were processed

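RNA from 9 EL4 tumours was extracted with TRIzol and made into libraries with a SMARTER kit, per the labels' protocols. The authors deposited raw counts per gene identifier. Per the submitters' processing notes they used mm10, and no source used here names an aligner, counter or annotation.

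The gene each nuclear row counted was inferred. GRCm38 exons (GENCODE vM21) of 50488 rows were moved by up to 2000000 bp, 250 bp at a time. For each stretch of rows, the displacement at which overlap with protein-coding exons best accounted for row totals was found by a hidden Markov model (penalty of 20 for a change of displacement) and refined to 10 bp. Rows counted as placed had a posterior of 0.99 or more, 100 bp or more of overlap with exons of coding genes (untranslated parts included), 90% or more of it on 1 gene, and the same gene after a shift of 250 bp. This placed 7071 rows. The displacement was -23020 bp for the Cd8b1, Klrd1 and Klrc1 rows and -164170 bp for the Gzmm row. The log-likelihood gain of these stretches was 751 over 2392 rows and 530 over 1643 rows, against -56.2 and -118 without displacement, which favours the displacement by construction. The names remain inferences.

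All 9 libraries were tested without covariates with edgeR 4.0.16 (R 4.3.3): filterByExpr, TMM, the robust quasi-likelihood test, and p-values adjusted by Benjamini-Hochberg over 11521 rows with a threshold of 0.05. The SE is the log2 fold change divided by the square root of F. Log2 CPM used a prior count of 2. Alternatives were other scaling factors and filters, DESeq2 1.42.0, limma 3.58.1, and libraries left out. Exact permutation tests of a correlation used 362880 pairings, or 2880 within groups. Sequences were aligned with blastn 2.17.0. The scripts were tested on simulated data, in which edgeR recovered 40% of rows changed 2-fold and 92% of rows changed 4-fold, with 10 false calls. A row that did not pass is thus not shown to be unchanged. All pairs of libraries differed by more than sampling noise (lowest chi-square per degree of freedom 11.2, Vec 1 and Vec 5). Named genes were the 4 rows, rows on the same genes and their neighbours, the 3 most similar rows each, and listed genes with the highest levels, and some of these are not reported here. The members and lists were chosen with earlier results of these data known.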

Additional observations from a re-analysis of the deposited data

How the results depend on the processing

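Over 17 alternatives, the log2 fold changes of the 4 rows kept their direction and their side of the threshold, with 1 exception: Gzmm, at 0.023 without Vec 1 and Vec 5. Cd8b1 ran from 0.73 to 1.17, Klrd1 from 0.27 to 0.78, Klrc1 from 0.61 to 1.45 and Gzmm from -0.77 to 0.023. Their adjusted p ran from 0.214 to 0.994 (edgeR, DESeq2 and limma voom). The number of rows past the threshold, 0 in edgeR, was 307 without a low-count filter, 81 with DESeq2, and 0 to 1 with 1 library left out. The row nearest to Cd8a ran from -0.0099 to 0.21 with 1 library left out, and was -0.049 without Vec 1 and Vec 5. Ctsw and Itgax passed without a low-count filter (adjusted p = 0.0349 and 0.00246, edgeR). The relation of Cd8b1 and Klrd1 lost its call with deviations from group means (0.60) and without Vec 1 and Vec 5 (0.76), and r ran from 0.66 to 0.89 with 1 library left out. That of Cd8b1 and Klrc1 lost it without Vec 3 and Vec 5 (0.81). For Klrd1 and Klrc1, r ran from 0.66 to 0.91 with 1 library left out, and for Klrd1 and Gzmm from -0.89 to -0.74, with -0.67 without Vec 1 and Vec 5, which are also the 2 farthest from the median. Klrc1 and Gzmm turned to 0.34 without Vec 5 and HVEM-KO 3. The cause of these changes was not tested. No paired analysis was possible because the labels give no numbers shared between groups. Depth limited Klrc1 most, at 2 to 39 reads per library.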

Other observations

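The ligand side of the CD94 and NKG2A receptor was seen only through class I genes. Of 9 genes listed, 4 had a placed row, and no row was placed on H2-T23, which encodes Qa-1. H2-K1, a classical class I gene with near-identical relatives, averaged 9846 ± 652 CPM over Vec tumours (SD, n = 5) and 9695 ± 378 CPM over HVEM-KO tumours (SD, n = 4). The proteasome subunit genes Psmb9 and Psmb8, which are induced by interferon gamma, were at 699 ± 62.8 and 798 ± 81.1 CPM and at 484 ± 123 and 522 ± 108 CPM. The peptide transporter gene Tap2 was at 301 ± 113 and 326 ± 104 CPM. Of these 4 genes 0 passed (edgeR, adjusted p from 0.569 to 0.959).

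Among the checkpoint genes, 3 of 9 had a placed row. Btla, the gene of the lymphocyte receptor BTLA that binds HVEM, averaged 3.23 ± 1.98 CPM over Vec tumours (SD, n = 5) and 0.906 ± 0.341 CPM over HVEM-KO tumours (SD, n = 4), from 139 reads in all. It entered the test only through its level in Vec tumours, and leaving out Vec 1, 2, 3 or 5 removed it, so no test of it is given. Havcr2, which encodes TIM-3, averaged 6.73 ± 4.17 and 7.05 ± 2.42 CPM, and Tox, a transcription factor of exhausted T cells, 405 ± 51.7 and 381 ± 80.6 CPM. Neither passed (edgeR, adjusted p = 0.958 and 0.857).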
